A study of Zea mays with 15 samples.

Results

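The comparison set internodes of maize sprayed with water and collected at 48 h against internodes collected untreated at 0 h, with 3 arrays in each group and 6 of the 15 arrays of the series in all. Both groups were greenhouse plants at the jointing stage with 8 leaves, and the tissue was the meristem of internode 7. The water 48 h plants belonged to a control set of 100 seedlings that received water and no ethephon. The untreated 0 h plants received no spray of any kind. Each array carried RNA pooled from 3 seedlings, and the labels name neither an inbred line nor a clone. The remaining 9 arrays, water at 24 h and ethephon (600 mg/L) at 24 and 48 h, helped to estimate the spread between replicates. Water at 24 h was also tested against water at 48 h and, for the called named genes, against untreated 0 h. The ethephon arrays are otherwise given as levels only. Because untreated plants were both younger by 48 h and unsprayed, age, spray and day of collection cannot be told apart.

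A grass internode grows from a meristem at its base. Cells divide there, are displaced upward, take up water through membrane channels as they expand, and lay down new wall made by cellulose synthases that move along microtubules. Chloroplasts are assembled and, in cells exposed to heat, chaperones are made to protect and dissolve misfolded proteins. The comparison asks which transcripts of this tissue differed after 2 days with only a water spray.

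The values are MAS5 signals, linear brightness summaries of 1 probe set on an Affymetrix maize array, and differences are log2 water 48 h minus untreated 0 h with limma standard errors. A call means a limma p at or under 0.05 after Benjamini-Hochberg adjustment, taken over the 10573 probe sets that passed a filter on mean signal. Array medians lay between 339 and 359 in water 48 h and between 298 and 365 in untreated 0 h. Correlations of log2 signals between arrays were 0.848 to 0.914 within the groups and 0.795 to 0.909 between them. The 3'/5' index, the mean log2 ratio of 3' to 5' signal of 7 maize control transcripts, was 1.44, 0.96 and 1.55 in water 48 h and 1.29, 0.239 and 1.28 in untreated 0 h. The difference of the means, 0.38, had an exact two-sided permutation p = 0.5, and 0.1 is the smallest p that 3 against 3 arrays allow. The second untreated array stood apart with the lowest index, so counts are also given without it.

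The meristem gene kn1, a homeobox gene of undifferentiated shoot cells, had signals of 4034, 3824 and 3373 in water 48 h and 2524, 2752 and 3614 in untreated 0 h. The groups overlapped, and the difference was 0.35 ± 0.15 (limma, adjusted p = 0.446). The knotted-class genes lg3 and knox7 were also kept, with differences of 0.44 and -0.41, and neither passed. Of 36 meristem and phase-change regulators 26 lay below the filter, and of the 10 kept 6 were higher and 4 lower. Leaf-type transcripts were present in both groups: the 24 photosynthesis genes summed to 68254 to 97690 in water 48 h and 77730 to 124177 in untreated 0 h. Of 9 epidermis and wax genes 6 lay below the filter, among them the epidermal ocl genes, so that list says little of the epidermis. The part of leaf-type cells in the results was not tested. Of 12 seed storage genes 11 lay below the filter, and the kept gz27 read 404 to 795 over the 6 arrays. In bulk tissue, fewer cells of a type and less RNA per cell cannot be told apart.

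After 48 h with water 84 of 10573 probe sets (0.794%) were called. Of these 39 were higher (0.369%) and 45 were lower (0.426%) than at 0 h. All 84 had 3 water arrays beyond all 3 untreated arrays, which held for 13.7% of all kept probe sets, 7.05% with water 48 h higher and 6.62% with water 48 h lower. Differences of called probe sets ran from 0.39 to 4.73 when higher, with a median of 1.23, and from -0.63 to -4.72 when lower, with a median of -1.45. More than 4-fold differences were found in 9 higher and 13 lower probe sets. Over all kept probe sets the median difference was 0.03 and the median of its size without sign was 0.24. Of all kept probe sets 53.6% lay higher in water 48 h, the share to set beside the counts of higher list members below. The count was 49 without the first water 48 h array, 51 without the second and 58 without the second untreated array. With arrays weighted by their quality it was 189, 98 higher and 91 lower. With a term for the 3'/5' index it was 60. With only the 6 arrays of the comparison in the fit it was 6, and 874 probe sets had an unadjusted p under 0.05.

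**Figure D1:**
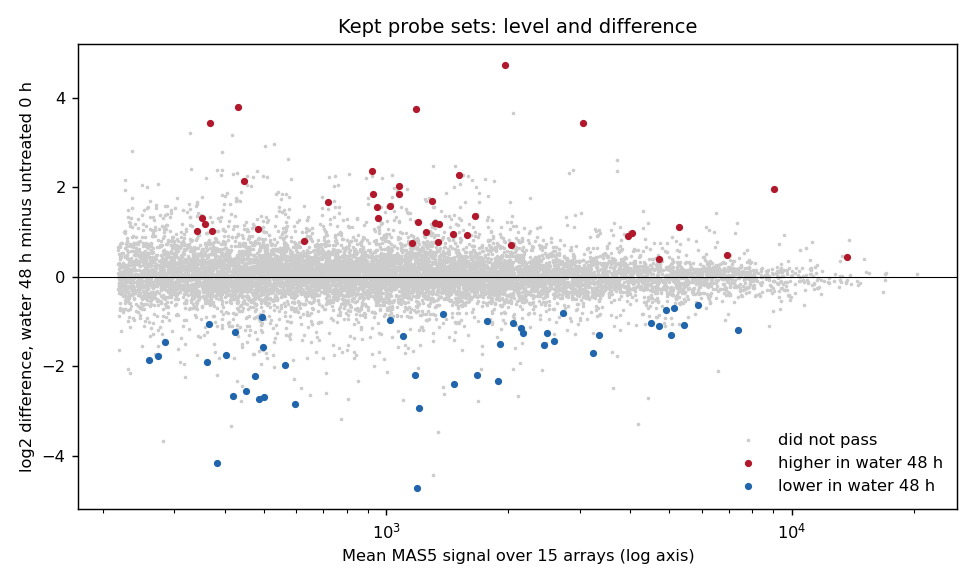
Each point is 1 of 10573 kept probe sets, with its mean MAS5 signal over 15 arrays on a log x axis and its log2 difference, water 48 h minus untreated 0 h, on the y axis. The 39 called higher (red) and 45 called lower (blue) probe sets lie at all signal levels, between 4.73 and -4.72.

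Among 762 genes with a name 8 were called (1.05%), 6 higher and 2 lower. They hold both genes of the thiamine list, a pair of genes for chloroplast proteins, a thioredoxin, an abundant GRP transcript, a chaperone and a gene of chlorophyll breakdown.

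The largest named rises were those of thi1 and thi1-2, which encode the enzyme that makes the thiazole part of thiamine, the precursor of a cofactor of central carbon metabolism. The signal of thi1 was 4949.5, 3462 and 5626 in water 48 h, against 299, 1185 and 213 in untreated 0 h. It rose 10.9-fold (log2 3.44 ± 0.53, limma adjusted p = 0.00586). For thi1-2 the signal was 13436, 11069.8 and 13391 in water 48 h, against 1949.5, 6092 and 2793 in untreated 0 h. It rose 3.92-fold (log2 1.97 ± 0.31, limma adjusted p = 0.00711). In both genes the second untreated array, the one with the low 3'/5' index, was the highest of its group and yet lay below every water 48 h array. Both calls held in 6 of 6 fits with 1 array left out. The genes are close copies, and how far their probe sets read each other's transcript was not tested. At 24 h the water arrays read 1867 to 4666 for thi1 and 8033 to 11830.3 for thi1-2, and ethephon arrays at 48 h read 2809.8 to 3818 and 9500.0 to 10925, so the level was above that of untreated plants with ethephon too.

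The genes tha9 and rnc1 act in chloroplasts. The first is related to a component of the twin-arginine route by which folded proteins enter thylakoids, and the second binds and helps to splice chloroplast introns. The tha9 signal was 1090.3, 1264 and 1225 in water 48 h and 433, 465 and 311 in untreated 0 h. It rose 3.00-fold (log2 1.58 ± 0.20, limma adjusted p = 0.0015), with no overlap and with a call in 6 of 6 fits with 1 array left out. Its probe set is of the type that can match several related transcripts. The rnc1 signal was 599.7, 544 and 569.8 in water 48 h and 307, 271 and 244 in untreated 0 h (2.09-fold, log2 1.07 ± 0.21, limma adjusted p = 0.032). Within each group rnc1 varied little, but its call was lost in each of 6 fits with 1 array left out, where the adjusted p ran from 0.0577 to 0.156.

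Other genes for chloroplast proteins did not pass and lay on both sides, and those named here were chosen by their p or after their values were seen. The splicing factor gene CAF1, whose protein binds the intron splicing factor CRS2, had signals of 564, 724 and 585 in water 48 h and 405, 242 and 146 in untreated 0 h (log2 1.35 ± 0.32, limma adjusted p = 0.0975). The gene bsd2, for a chaperone needed to assemble Rubisco, had 709, 682 and 1024 in water 48 h and 495, 447 and 164 in untreated 0 h (log2 1.26 ± 0.41, adjusted p = 0.279). The gene rca1, for the activase of Rubisco, had 145, 214 and 416 in water 48 h and 416, 1081 and 377 in untreated 0 h (log2 -1.24 ± 0.53, adjusted p = 0.457). Of 22 kept photosynthesis genes 5 were higher and 17 lower, and the median was -0.13. Of these 0 passed, beside 0.794% of all kept probe sets. The photosystem II subunit gene psbs1 had 1027, 1826 and 1752 in water 48 h and 2303, 5061 and 2350.1 in untreated 0 h (log2 -1.02 ± 0.49, limma adjusted p = 0.529). The chlorophyll-binding protein gene Cab-m7 differed by -0.46 ± 0.35 and lhcb6 by -0.42 ± 0.28, with overlapping groups. Without the second untreated array the photosynthesis median was 0.01, with 12 higher and 10 lower.

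A smaller rise was that of trxh1, a thioredoxin that reduces disulphides in the cytosol. Its signals were 7517, 7591 and 6849 in water 48 h and 5184, 4886 and 5729 in untreated 0 h (1.39-fold, log2 0.48 ± 0.09, limma adjusted p = 0.0285). The groups did not overlap, and the call held in 2 of 6 fits with 1 array left out. The antioxidant list had 7 of 10 kept members higher, 1 of them called, with a median of 0.33. Over all kept probe sets 53.6% were higher and 0.794% were called. GRP, named for a glycine-rich protein, had 14333, 14595 and 13706 in water 48 h and 10667, 10044 and 10821 in untreated 0 h. Its small rise of 1.35-fold (log2 0.44 ± 0.06, limma adjusted p = 0.00329) was called in 6 of 6 fits with 1 array left out.

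The larger of the called named falls was that of hsp101, a ClpB-type chaperone that pulls proteins out of aggregates and is needed for tolerance to heat. The signal was 505, 504 and 279.6 in water 48 h, against 4459.9, 2155 and 3379 in untreated 0 h. It fell, and untreated 0 h was 7.70-fold above water 48 h (log2 -2.94 ± 0.33, limma adjusted p = 0.000847). Every water array lay far below every untreated array, and the call held in 6 of 6 fits with 1 array left out.

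The rest of the heat shock list was mixed. Small heat shock proteins, which hold unfolding proteins until other chaperones act on them, had 4 kept members. The mitochondrial hsp22 read 3123, 1773 and 1891 in water 48 h and 8965, 5350.0 and 7359 in untreated 0 h, without overlap (log2 -1.69 ± 0.51, limma adjusted p = 0.23). The cytosolic hsp18a read 1675, 1780.0 and 1151 in water 48 h and 5272, 2377 and 3868 in untreated 0 h, also without overlap (log2 -1.27 ± 0.35, adjusted p = 0.184). For hsp18f, where the groups overlapped, the difference was -1.10 ± 0.41, and for hsp18c it was 0.04 ± 0.75 with signals from 256 to 1767 on all arrays. Neither the general chaperones hsp70-4 (-0.07 ± 0.09) and hsp70-5 (-0.20 ± 0.08) nor the endoplasmic reticulum chaperone crt2 (-0.18 ± 0.16) passed. The protein disulphide isomerase gene pdi lay higher, with 4446, 3848 and 4229.7 in water 48 h and 2526, 3124 and 2904 in untreated 0 h (log2 0.55 ± 0.13, adjusted p = 0.0975). In all, 11 of 24 kept members were higher and 13 lower, 1 passed, the median was -0.06, and 11 of the 24 had groups that did not overlap. Over all kept probe sets 0.794% passed and 13.7% did not overlap.

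The second called named fall was that of lls1, for the oxygenase that opens the ring of a chlorophyll breakdown product and whose loss gives lethal leaf spots. Signals were 293, 232 and 306 in water 48 h and 534, 506 and 696 in untreated 0 h (log2 -1.06 ± 0.21, limma adjusted p = 0.0402). The groups did not overlap, but the call was lost in each of 6 fits with 1 array left out (adjusted p from 0.0676 to 0.192).

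**Figure D2:**
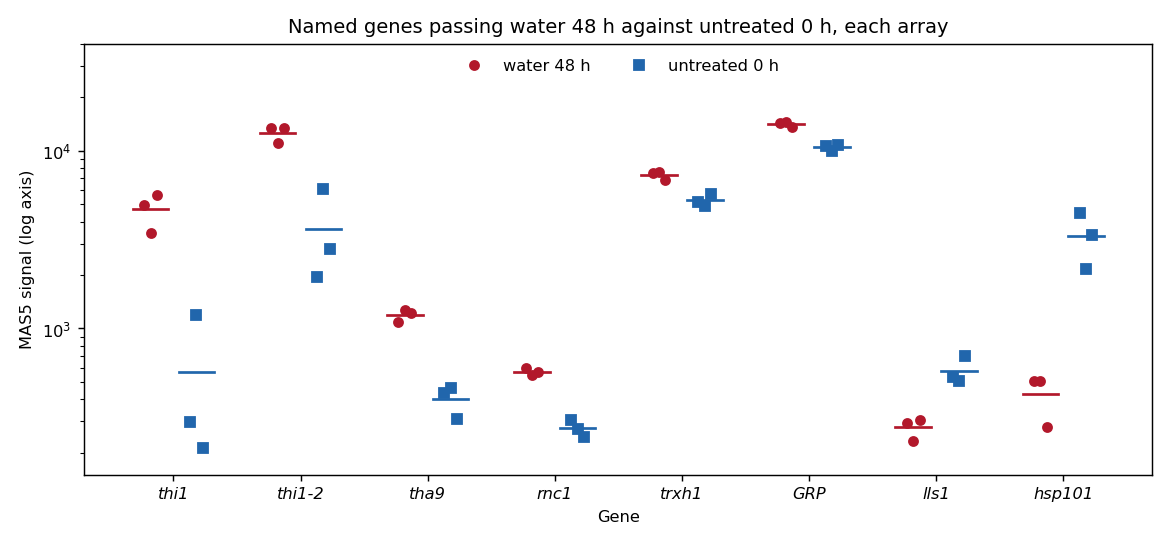
Each point is 1 array, with MAS5 signal on a log y axis, for the 8 named genes that passed, water 48 h (red circles) left of untreated 0 h (blue squares) and bars at the means of 3 arrays. In each gene the groups do not overlap, and hsp101 stands at 279.6 to 505 in water 48 h against 2155 to 4459.9 in untreated 0 h.

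None of the water channel genes was called, beside 0.794% of all kept probe sets. All 7 kept plasma membrane aquaporins had a negative difference, with a median of -0.84, and 5 of the 7 had groups that did not overlap, beside 13.7% of all kept probe sets. PIP2-1 read 4552, 5298 and 7387 in water 48 h and 9088, 11538 and 9692 in untreated 0 h (log2 -0.84 ± 0.20, limma adjusted p = 0.0975). It passed when the third water 48 h array was left out (-1.03, adjusted p = 0.039). PIP1-1 read 4110.1, 6922 and 6399 in water 48 h and 9897, 13043 and 10589 in untreated 0 h (log2 -0.97 ± 0.33, adjusted p = 0.306). PIP1-3 differed by -0.56 ± 0.19, PIP2-3 by -0.70 ± 0.38, PIP2-2 by -1.13 ± 0.59 and PIP2-4 by -1.42 ± 0.86. The smallest difference was that of PIP1-2, -0.37 ± 0.18. The list stayed at 0 higher and 7 lower under quantile normalization, median centring, array weights and each left-out array, with medians from -0.67 to -1.03.

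The most negative difference of any list member was that of TIP2-1, a channel of the vacuole. It read 375, 2279 and 3540.4 in water 48 h and 14039.9, 14715 and 13706 in untreated 0 h. The 3 untreated arrays were close together and the 3 water arrays were far apart. The difference was -3.29 ± 0.86, with the error taken over all 5 groups (limma adjusted p = 0.145). TIP1-1 read 7306, 9537 and 8338 in water 48 h and 11126, 12102 and 11170.4 in untreated 0 h (log2 -0.46 ± 0.15, adjusted p = 0.288). The silicon channel genes and the small basic channel genes had differences on both sides of 0. In the vacuolar and other aquaporin list as a whole 4 of 12 kept members were higher and 8 lower, with a median of -0.15.

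Enzymes of sugar and inositol metabolism also held wide differences that did not pass. The vacuolar invertase ivr2, which splits sucrose, had 1274, 2035 and 5579.6 in water 48 h and 8406, 9137 and 7389 in untreated 0 h (log2 -1.76 ± 0.71, limma adjusted p = 0.422). Sucrose synthase sus1 differed by only -0.13 ± 0.16, and 9 of 14 kept sucrose and starch genes were higher, with a median of 0.31. INO1, which makes inositol phosphate from glucose phosphate, read 352, 213 and 98.2 in water 48 h and 1231, 1265 and 772 in untreated 0 h (log2 -2.45 ± 0.59, adjusted p = 0.0975). The INO1 groups did not overlap.

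**Figure D3:**
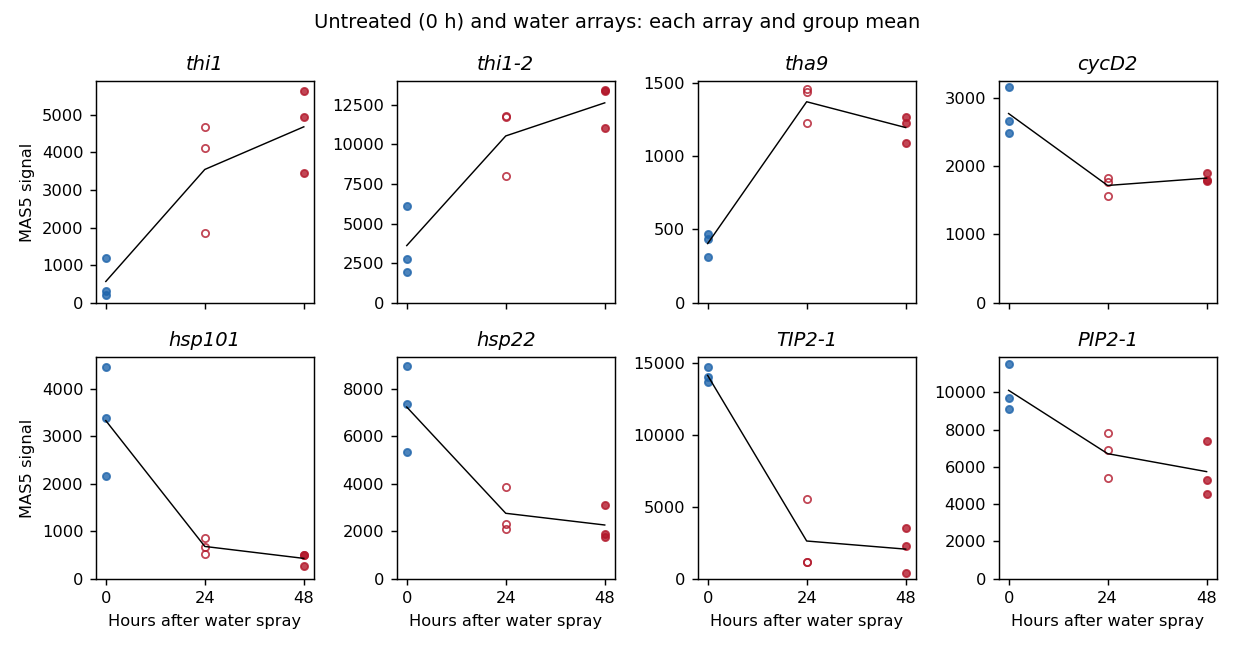
MAS5 signals of 8 genes on untreated arrays at 0 h (blue) and water arrays at 24 h (open red) and 48 h (filled red), 3 arrays a time, with a line through the group means. TIP2-1 reads 13706 to 14715 at 0 h, 1153 to 5545 at 24 h and 375 to 3540.4 at 48 h, and tha9 has its highest mean at 24 h.

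Genes of division were not called, and over all kept probe sets 0.794% were. The D-type cyclin cycD2, which brings cells into the cycle, had 1794, 1782 and 1902 in water 48 h and 2479.7, 3168 and 2668 in untreated 0 h. It was the named gene closest to the threshold among those that missed it (log2 -0.60 ± 0.13, limma adjusted p = 0.0642). With ethephon it read 2044 to 2486 at 48 h, above every water 48 h array. The kinase cdc2, which drives division, differed by -0.08 ± 0.16. The replication clamp genes PCNA and pcna2 lay higher by 0.71 ± 0.83 and 0.85 ± 0.80, with groups that overlapped. PCNA read 3043, 1514 and 901 in water 48 h and 1707, 585 and 958 in untreated 0 h, so that the arrays of each group spread widely. The second untreated array, with the low 3'/5' index, was the lowest of its group for both clamp genes. The median of the list without that array is not given here. Over the cell cycle list 9 of 12 kept members were higher and 3 lower (median 0.36), and 2 of the 12 were without overlap, 16.7% beside 13.7% of all kept probe sets.

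Most chromatin genes were slightly higher. Of 51 kept members 39 were higher, 12 were lower and 0 passed, beside 0.794% of all kept probe sets. Their median was 0.16, beside 0.03 for all probe sets. Without the second untreated array the counts were 26 and 25 with a median of 0.01. The linker histone gene his1a went the other way, with 9328, 7565 and 7285 in water 48 h and 10651, 10775 and 13173 in untreated 0 h (log2 -0.52 ± 0.16, limma adjusted p = 0.244), while the linker histone hon101 differed by 0.40 ± 0.28. Genes for ribosomal proteins and translation had 19 of 23 higher with a median of 0.10, and after median centring 13 of 23 with a median of 0.02. The growth-regulating factors and their partners, which promote division in young organs, had 8 of 9 higher and a median of 0.68, with 0 calls. Without the second untreated array 7 of 9 were higher, with a median of 0.34, and without the second water 48 h array the median was 0.41. GIF1 had signals of 594, 945 and 44.9 in water 48 h and 138, 29.0 and 68.3 in untreated 0 h. The water array at 44.9 lay among the untreated ones, which were all below the filter level. The untreated mean of GRF2, 133, was below that level too, and GRF13 was kept with a mean over all arrays of 222, near it. The folds of GIF1 and GRF2 are therefore uncertain, and the counts and medians of the list include these genes.

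The cytokinin list held receptors, phosphotransfer proteins and response regulators, some of which are switched on early by this hormone of division. Of its 12 kept members 2 were without overlap, 16.7% beside 13.7% of all kept probe sets. RR5 read 640.2, 524 and 638 in water 48 h and 219, 222 and 350.4 in untreated 0 h (log2 1.22 ± 0.36, limma adjusted p = 0.217). RR7 read 435, 338 and 327 in water 48 h and 158, 163 and 288 in untreated 0 h (log2 0.90 ± 0.28, adjusted p = 0.25). RR9 (0.52 ± 0.25) and RR6 (0.60 ± 0.53) had overlapping groups. The regulators RR8 and RR10 went the other way, by -0.22 and -0.16, and the phosphotransfer gene hp2 differed by -0.41 ± 0.25. Over the list 7 of 12 kept members were higher, with a median of 0.19, and -0.07 without the second untreated array. Of the other hormone lists none held a call, beside 0.794% of all kept probe sets. The auxin carrier aux1 read 241 to 1654 in water 48 h and 84.9 to 1036 in untreated 0 h. The gibberellin gene d3 read 103 to 132 in water 48 h and 121 to 202 in untreated 0 h, all below the filter level, so no difference is given. The ethylene receptor gene etr2 (-0.41 ± 0.29) had overlapping groups. The lipoxygenase lox1, of the path to jasmonate-like oxylipins, read 4240.0, 3446 and 4345 in water 48 h and 2104, 1403 and 2734 in untreated 0 h (log2 0.99 ± 0.30, adjusted p = 0.244). The dehydrin dhn1 differed by -1.29 ± 1.34.

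Lists for the cytoskeleton, the primary wall and vesicle transport held 0 calls, beside 0.794% of all kept probe sets. All 13 kept genes for tubulins, profilins and the actin-severing adf3 had a negative difference, with a median of -0.24 and a range from -0.56 to -0.07. In 1 of the 13 the groups did not overlap, 7.69% beside 13.7% of all kept probe sets. The tubulins tua4 and tub6 differed by -0.07 ± 0.10 and -0.21 ± 0.14, and adf3 by -0.14 ± 0.12. The list had 1 member higher in 4 settings: array weights, an index term in the model, and without the first water 48 h or the second untreated array. Of 9 cellulose synthases of the primary wall 7 were lower (median -0.32), with CesA-9 at -0.32 ± 0.30. All 6 secretory genes, a list drawn up from earlier results of these arrays and so no independent evidence of direction, were lower with a median of -0.40, led by cop2 with 4457, 4883 and 5143 in water 48 h and 6310.3, 7869 and 6438 in untreated 0 h (log2 -0.50 ± 0.15, limma adjusted p = 0.199). The vesicle coat gene copz2 differed by -0.42 ± 0.14 and arf1, the switch that starts coat assembly, by -0.37 ± 0.15. In median-centred values the 3 lists moved to -0.32, -0.39 and -0.47, and with quantile normalization to -0.18, -0.25 and -0.31.

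Expansins, which loosen walls during growth, and other wall proteins had 7 of 11 kept members higher with a median of 0.14, which was -0.32 without the first untreated array. The beta-expansin expB4 read 1683, 1796 and 2942 in water 48 h and 3335, 6876 and 5283 in untreated 0 h (log2 -1.26 ± 0.65, limma adjusted p = 0.57), and expB8 differed by -0.25 ± 0.17. The wall protein gene prcw1 read 6728, 8299 and 10072 in water 48 h and 3282, 3087 and 7219 in untreated 0 h (log2 0.98 ± 0.45, adjusted p = 0.494). The kept lignin enzymes lay lower, and none passed. PAL1, the entry step, had 6935, 5850.4 and 8194 in water 48 h and 11099, 11030.5 and 12062 in untreated 0 h (log2 -0.72 ± 0.23, adjusted p = 0.261). BM1, which reduces the aldehyde precursors, differed by -1.03 ± 0.46, 4CL by -1.03 ± 0.55 and ccr2 by -0.53. The 3 cellulose synthases of the secondary wall were at 0.10 to 0.45 and bk2 at 0.39, so that list held 4 higher and 4 lower.

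**Figure D4:**
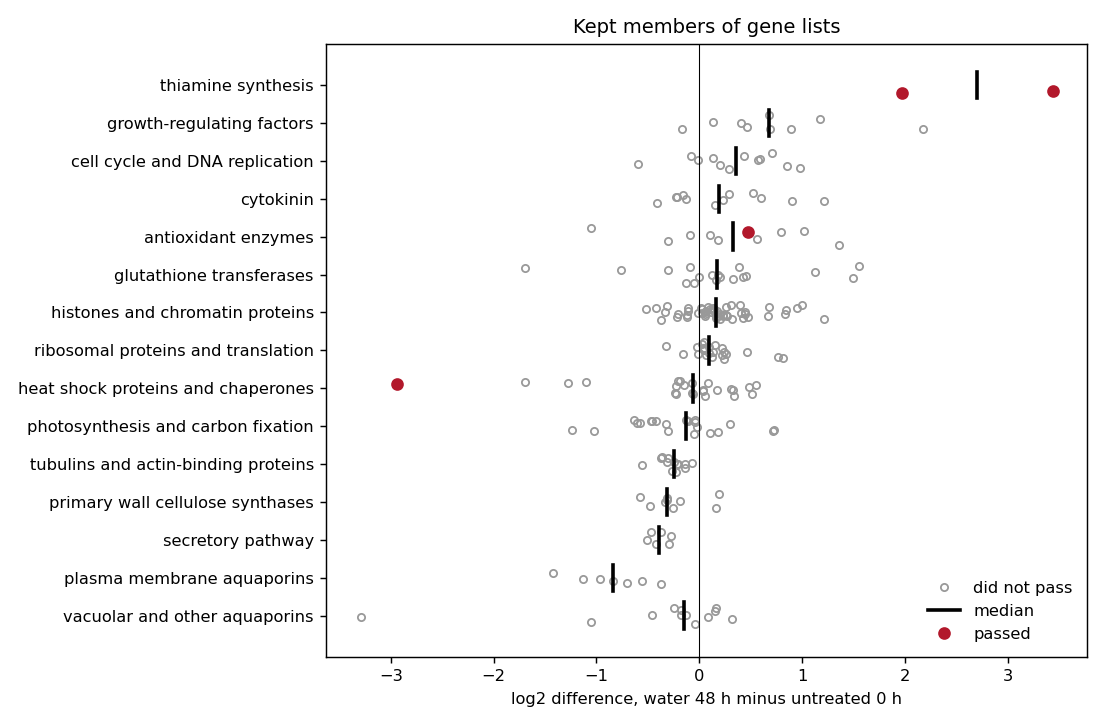
Each point is a kept member of 1 of 15 gene lists, by its log2 difference, water 48 h minus untreated 0 h, with filled red points for members that passed and a bar at each list's median. The thiamine genes stand at 1.97 and 3.44 and hsp101 at -2.94, while the plasma membrane aquaporins lie between -1.42 and -0.37.

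Further genes named for a low p did not pass. The glutathione transferase gst6 read 616, 603 and 1133 in water 48 h and 147, 449 and 252 in untreated 0 h (log2 1.55 ± 0.43, limma adjusted p = 0.181), and 12 of 18 kept genes of that family were higher with a median of 0.17. SRP2B differed by 1.28 ± 0.36. The derlin DER1.1, of protein disposal at the endoplasmic reticulum, differed by -0.46 ± 0.13 and rcalm by -0.45 ± 0.13. The cysteine protease ccp1 read 8945, 9713 and 9836 in water 48 h and 5498, 7756 and 5779.5 in untreated 0 h (log2 0.60 ± 0.21, adjusted p = 0.313). Calcium and protein kinase genes had 10 of 12 lower with a median of -0.14. Meristem regulators had 6 of 10 kept members higher, glycolytic genes 7 of 13 and nitrogen genes 9 of 16.

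Of the 84 called probe sets 76 carried no gene name here, 33 of them higher and 43 lower. The probe set Zm.6774.1.A1_at had the lowest p, with signals of 620.3, 473 and 692 in water 48 h and 34.1, 43.9 and 50.8 in untreated 0 h (log2 3.79 ± 0.27, limma adjusted p = 4.82e-05). Zm.18429.1.A1_at had 1655, 1774 and 1089 in water 48 h and 91.2, 137 and 108 in untreated 0 h (log2 3.74 ± 0.30, adjusted p = 9.11e-05). The untreated signals of both lay below the filter level of 218, where a fold is uncertain. Among the falls Zm.11595.1.A1_at had 58.0, 65.8 and 152 in water 48 h and 1596, 2300.2 and 916 in untreated 0 h (log2 -4.17 ± 0.46, adjusted p = 0.000847). Its water 48 h signals lay below the filter level, so this fold is uncertain too. Zm.5083.2.A1_x_at had 271, 268 and 180.1 in water 48 h and 1128, 2089.7 and 1139 in untreated 0 h (log2 -2.56 ± 0.28, adjusted p = 0.000847). Its ID number was shared by 6 called probe sets, lower by 1.26 to 2.68 on the log2 scale in water 48 h, and the 84 carried 73 ID numbers, so some may read the same gene. These 4 probe sets were called in 6 of 6 fits with 1 array left out.

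No probe set was called between 24 and 48 h with water, which does not show that levels stayed the same on the second day. Between water 48 h and water 24 h 0 of 10573 probe sets (0.0%) passed in limma, with a lowest adjusted p of 0.992 and 344 at an unadjusted p under 0.05. Without the first water 48 h array there were 2 calls. The water arrays of the 2 times also differed in quality measures. The 3'/5' index was 1.54 to 2.23 at 24 h and 0.96 to 1.55 at 48 h. The control probe set AFFX-LysX-5_at read 21.1 to 32.2 at 24 h and 43.5 to 56.8 at 48 h. Among the called named genes, thi1 differed by 0.48 ± 0.53 between 48 and 24 h, tha9 by -0.20 ± 0.20, GRP by 0.01 ± 0.06, lls1 by -0.18 ± 0.21 and hsp101 by -0.69 ± 0.33. Against untreated 0 h, lls1 did not pass at 24 h (limma adjusted p = 0.062), while the other called named genes did. These genes were called against the same untreated arrays, so their passing at 24 h is no separate evidence. At 0 h the 3'/5' index was 0.239 to 1.29 and AFFX-LysX-5_at read 52.6 to 72.7, both outside the 24 h ranges. The named genes with the lowest p, none of which passed, included aprt1, which recovers adenine, with 847, 839 and 729.6 at 48 h and 311, 628 and 344 at 24 h (log2 0.98 ± 0.29). The expansin expa1 had 2549.7, 1714 and 2256 at 48 h and 536, 624 and 1161 at 24 h (log2 1.56 ± 0.60). Also higher at 48 h were gpc2 (0.25 ± 0.08), stm1 (0.42 ± 0.15) and glx1 (0.26 ± 0.10). The lowest p among genes lower at 48 h were those of the tryptophan synthase gene orp1 (-0.47 ± 0.14), the cytokinin receptor gene HK1 (-0.70 ± 0.26), LOC606466 (-0.49 ± 0.21), hsp101 and FL1 (-0.71 ± 0.35). At 0 h expa1 read 891, 2959 and 3652 and aprt1 468, 1045 and 766, so that at 48 h neither lay beyond its untreated range.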

How the data were processed

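The authors deposited 1 table of linear MAS5 signals (intensity), per the submitters' processing notes, for 17734 probe sets on 15 arrays. The MAS5 version and scaling target are not given in the sources used here. All columns were used. The 113 control probe sets were left out of tests. Signals were taken to log2 with no offset, and the 10573 of 17621 probe sets with a mean signal at or above the 40th percentile (218) were kept. limma 3.58.1 in R 4.3.3 fitted 5 group means over all 15 arrays with a trend in the prior (residual degrees of freedom 10, prior 2.62), and Benjamini-Hochberg adjustment used a threshold of 0.05. The code was tested on simulated data, in 5 draws with 200 changed probe sets each. It recovered 39.2% of changes of log2 1 and 83.4% of changes of log2 2, with 6.8 false calls on average. A missing call therefore does not show an unchanged level. Python 3.11.15, pandas 2.3.3 and matplotlib 3.10.9 made tables and figures.

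Of the probe sets 1452 had 1 gene, for 1108 genes, of which 1060 matched the maize RefSeq table, 1 had several and 16168 had none. The probe set with the highest mean signal stood for a gene. The named genes were the 10 largest passing rises and falls, filled with the lowest p, then the passing members and the 3 brightest others of each of 32 lists, the 5 lowest p each way for 48 against 24 h, and 2 unnamed probe sets each way. Other small heat shock, aquaporin, response regulator, replication, growth-regulating, bsd2, psbs1 and rca1 genes were added after their values were seen. The comparison, the lists and the tests were chosen with earlier results of these data known. What a gene does is general background. The labels call the replicates biological, and the p-values measure the spread between pools of 3 seedlings of 1 experiment, whose number limits the precision. Promoter motifs were not searched and no coordinates were used.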

Additional observations from a re-analysis of the deposited data

How the results depend on the processing

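The 84 calls between water 48 h and untreated 0 h changed with the arrays in the fit and their weights: only the 6 arrays of the comparison gave 6 calls (3 higher, 3 lower), and leaving out the 24 h arrays gave 42 (18 higher, 24 lower). Array weights gave 189 (98 higher, 91 lower), and a term for the 3'/5' index gave 60 (24 higher). Other filters, an offset, quantile normalization, median centring and other moderation gave 65 to 88. Leaving out 1 array gave 49 to 68 calls, 16 to 33 of them higher, with 49 and 51 without the first and second water 48 h arrays. Between 48 and 24 h with water it gave 0 to 2. The replicate numbers did not pair the samples (correlations of deviations of same-numbered arrays 0.383, -0.292 and -0.204). The highest such correlation between the groups, 0.569, was that of the third water 48 h array with the second untreated array. The log2 signals of these arrays correlated at 0.907. A replicate block gave 62 calls, 25 of them higher. The cause was not tested. The calls of thi1, thi1-2, tha9, GRP and hsp101 held in 6 of 6 fits with 1 array left out, and all 8 named calls were lost with only the 6 arrays. With array weights pdi, gst6, cycD2, PIP2-1, TIP2-1 (-4.05), hsp18a and RR5 also passed, and so did CAF1 without the first untreated array (1.72).

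Of the named genes 18, none of them called, changed sign in some setting. Array weights gave abp4 0.22 and gl1 0.35. Quantile normalization gave hsp70-4 0.024, eno1 0.045, Myb23 -0.037 and hsp18c -0.021. Median centring gave gpc2 -0.065, plt2 -0.0038, ccp2 -0.049, Myb23 -0.025 and hsp18c -0.039. The index term gave gl1 0.070, Myb23 -0.053 and hsp18c -0.61. With 1 array left out the differences ran from -0.19 to 0.025 for cdc2, -0.50 to 0.10 for abp4, -0.081 to 0.35 for HP1, -0.074 to 0.57 for HP3 and -0.061 to 0.52 for dhn2. They ran from -0.16 to 0.0013 for hsp70-4, -0.032 to 0.060 for gpc2, -0.32 to 0.064 for GIF2, -0.29 to 0.51 for plt2, -1.10 to 0.56 for gl1 and -0.29 to 0.050 for cys2. For ccp2 the range was -0.19 to 0.20, for gdh1 -0.32 to 0.012, for Myb23 -0.20 to 0.34, for glu1 -0.24 to 0.060, for RR6 -0.077 to 1.26 and for hsp18c -0.79 to 0.58. Signals under the filter level limit the fold of 10 called probe sets with a low untreated mean and of 7 with a low water 48 h mean.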
